A study of Sus scrofa with 46 samples.

Results

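The genes described here are 10 markers of liver endothelium, STAB1, STAB2, LYVE1, PECAM1, VWF, KDR, CDH5, TEK, FLT1 and ENG. They were taken by symbol from a table of read counts for 18440 genes, and all 10 were found in it. The table holds liver RNA sequenced from 46 piglets in a design that crossed intrauterine growth restriction (IUGR), inadequate growth in the womb, with an energy supplement after birth. The piglets were crossbreds of Danish Landrace × Danish Yorkshire sows and Duroc boars, and were kept indoors until 72 h of age. IUGR piglets were picked by head shape and appearance, so the group is a visual class and not one set by weight. The supplement was Piggy Boost, a commercial paste with colostrum, fatty acids and vitamins given by mouth, and piglets of all groups had suckled their mother before they moved to a nurse sow. Several piglets came from the same sow, but the labels give neither litter nor sampling week nor sex, and none was fitted. Of the normal-sized piglets 11 were left without the paste and 12 received it, and of the IUGR piglets 10 were left without and 13 received it, each giving 1 library.

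Blood crosses the liver through sinusoids, capillaries whose endothelial cells are perforated by open pores and lack a continuous basement membrane. These cells clear waste from the blood through scavenger receptors, among them the stabilins STAB1 and STAB2, which take up modified proteins and, in the case of STAB2, hyaluronan. The larger veins and arteries carry a continuous endothelium, which stores von Willebrand factor for clotting. Both kinds of endothelium depend on vascular endothelial growth factor (VEGF), on angiopoietins and on ligands of the transforming growth factor beta family, whose receptors are among the 10 genes.

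Levels are given as CPM, the count of a gene per 1000000 counts of its library, with the library total adjusted by the trimmed mean of M values (TMM). The total count per library was 15036591 to 19340218, and 15720 to 16196 genes were detected. The tissue label was checked with 10 hepatocyte genes, whose summed level was 80840 to 235200 CPM in all libraries. The libraries of pig 38 (labelled IUGR untreated) and of pigs 39 and 46 (labelled IUGR treated) stood apart over all genes, with a median correlation to the other libraries of 0.868 to 0.916 against 0.979 to 0.986 for the other 43, so results are given with and without them. Columns were assigned by the pig number that heads them. Whether each number stands over the right column could not be checked from the labels and is uncertain, so every group difference holds only if the headings are right. Levels and correlations over all libraries together do not depend on it, while levels by group and the correlation with group means removed do.

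None of the 10 endothelial genes passed the test in any comparison of the labelled groups. With edgeR's quasi-likelihood test and Benjamini-Hochberg adjustment at 0.05, IUGR against normal-sized piglets gave 0 of 10 members without the supplement, where 0.0435% of all 13780 tested genes were called, and 0 of 10 with it, where 0.00726% were called. The supplement gave 0 of 10 members in normal-sized piglets (0.0% of all genes called) and 0 of 10 in IUGR piglets (0.029% called). The mean of both IUGR comparisons, the mean of both supplement comparisons and the difference between the IUGR effects with and without the supplement also gave 0 of 10 each, with 0.0%, 0.0435% and 0.0% of all genes called. At an unadjusted p under 0.05, FLT1 and ENG were higher in treated IUGR than in treated normal-sized piglets, FLT1 was higher in treated than in untreated IUGR piglets, and FLT1 differed in the effect of IUGR between treated and untreated piglets. Of all tested genes 16.7%, 4.54% and 6.66% reached that level in these 3 comparisons, so 2 of 10 members in the first was near the background. No other member reached it in any of the 7 comparisons. DESeq2 and limma voom with sample quality weights also called 0 of 10 members in each. DESeq2 called 1.12% and 0.0581% of all genes for IUGR in untreated and treated piglets, 0.236% and 0.174% for the supplement in normal-sized and IUGR piglets, 1.7% and 0.123% for the mean IUGR and mean supplement effects, and 0.0508% for the difference of the IUGR effects. Limma voom called 1.21%, 0.138%, 5.68%, 0.849%, 0.385%, 5.97% and 0.0218% in the same order. Without pigs 38, 39 and 46 edgeR again called 0 of 10 members in each comparison, against 1.44%, 0.0%, 0.762%, 0.0653%, 0.0%, 0.508% and 0.00726% of all genes.

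EdgeR called few genes of any kind, so these counts say little about the members alone. Where edgeR called 0 genes at all, DESeq2 called 30 and limma voom 783 for the supplement in normal-sized piglets, 234 and 53 for the mean IUGR effect, and 7 and 3 for the difference of the IUGR effects. At an unadjusted p under 0.05 edgeR had 1176, 3138 and 918 genes in these comparisons. The median log2 fold change of the 10 members was 0.083 for IUGR in untreated and 0.14 in treated piglets, and -0.061 for the supplement in normal-sized and 0.041 in IUGR piglets. Over all tested genes the same medians were 0.0052, 0.020, -0.0045 and 0.024. Without pigs 38, 39 and 46 the members' medians were 0.015, 0.027, -0.058 and -0.036.

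**Figure D1:**
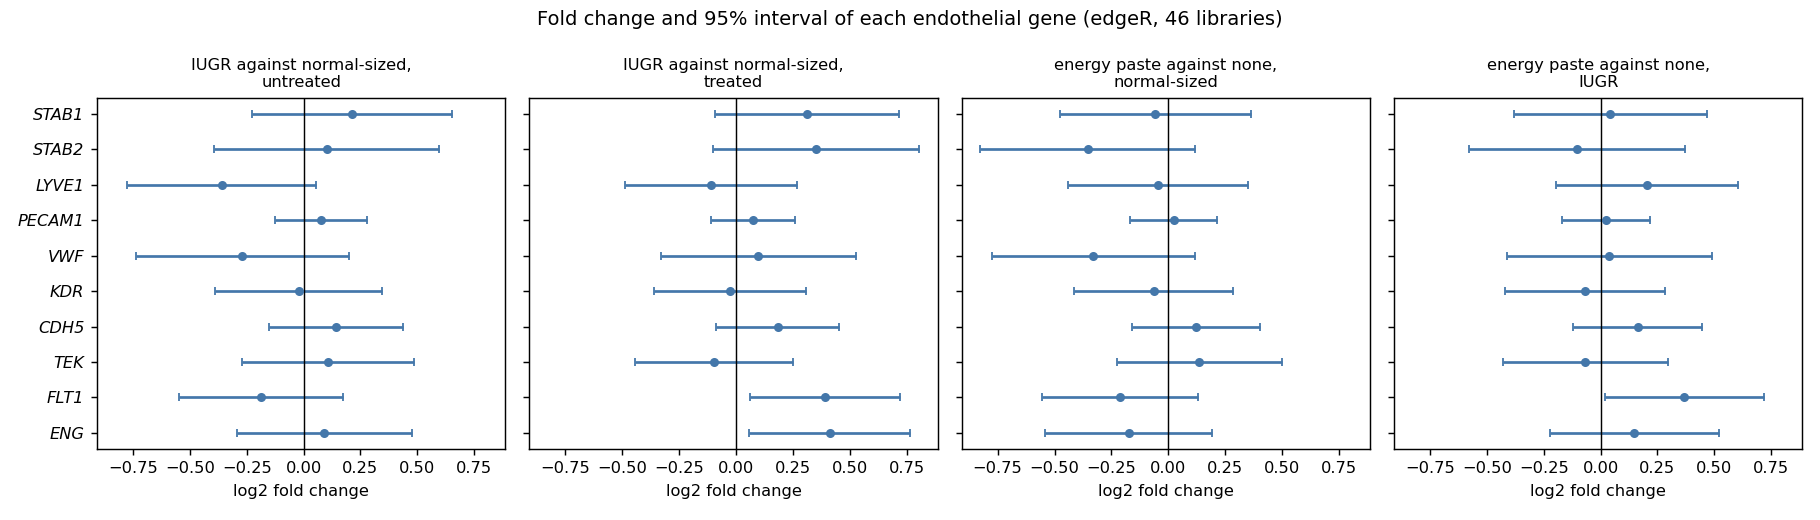
Log2 fold change (x axis) of each of the 10 endothelial genes in the 4 comparisons of 2 groups, from edgeR on all 46 libraries, with bars for the 95% interval. The intervals cross 0 except for FLT1 and ENG in treated IUGR against treated normal-sized piglets and FLT1 for the supplement in IUGR piglets, and none of these passed the adjusted threshold.

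STAB1, a scavenger receptor of sinusoidal endothelium and of some macrophages, is on chromosome 13 from 34630448 to 34659371 in the Sscrofa11.1 genome, to which the other positions also refer. In normal-sized piglets its lowest, median and highest levels were 43.9, 111 and 211 CPM without the supplement and 53.6, 112 and 163 CPM with it. In IUGR piglets they were 62.7, 134 and 237 CPM without and 87.8, 117 and 319.8 CPM with the supplement. All 4 ranges overlapped, and the highest values of both IUGR groups came from pigs 38 and 39. The log2 fold change for IUGR was 0.21 (standard error 0.22) in untreated and 0.31 (standard error 0.21) in treated piglets. With pigs 38, 39 and 46 left out these values were 0.093 and 0.043. For the supplement STAB1 was at -0.057 (standard error 0.21) in normal-sized and 0.042 (standard error 0.22) in IUGR piglets on the log2 scale, neither past the threshold.

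STAB2, the main hyaluronan clearance receptor of liver sinusoids, lies on chromosome 5 from 80692459 to 80863221. Its lowest, median and highest levels were 132, 268 and 542 CPM in normal-sized untreated and 99.95, 218 and 400.3 CPM in normal-sized treated piglets. They were 148, 326 and 518 CPM in IUGR untreated and 171, 291 and 743 CPM in IUGR treated piglets. The groups overlapped over most of their range, and within a group the highest library was 3.5 to 4.35 times the lowest. Treated and untreated normal-sized piglets differed in their means, at 246 ± 96.2 (SD, n = 12) against 314 ± 144.5 CPM (SD, n = 11), or -0.35 on the log2 scale with a standard error of 0.24 (adjusted p = 0.748 by edgeR's quasi-likelihood test). For IUGR it was 0.10 (standard error 0.25) in untreated and 0.35 (standard error 0.23) in treated piglets, and 0.012 and 0.15 without pigs 38, 39 and 46.

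LYVE1, a hyaluronan receptor of sinusoidal and lymphatic endothelium, lies on chromosome 2 from 48937357 to 48954206. In normal-sized piglets the lowest, median and highest levels were 27.8, 56.2 and 78.2 CPM without and 35.2, 53.4 and 75.15 CPM with the supplement. The values of IUGR piglets were 18.2, 40.2 and 62.1 CPM without and 15.5, 52.6 and 71.65 CPM with it. The ranges overlapped, and the lowest values of both IUGR groups came from pigs 38 and 39. LYVE1 had the lowest fold change of the members for IUGR in untreated piglets, -0.36 on the log2 scale (standard error 0.21, 95% interval -0.78 to 0.055, adjusted p = 0.488 by edgeR). Without pigs 38, 39 and 46 it was -0.27, and in treated piglets it was -0.11 (standard error 0.19) with and 0.053 without them. With limma voom LYVE1 had an unadjusted p of 0.0147 for IUGR in untreated piglets and of 0.00762 for the supplement in IUGR piglets, at -0.39 and 0.41 on the log2 scale, with adjusted p values of 0.17 and 0.14. Of all tested genes 17.8% and 16.6% had an unadjusted p under 0.05 in these limma voom comparisons.

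PECAM1, an adhesion molecule of the contacts between endothelial cells that platelets and leukocytes also carry, lies on chromosome 12 from 14667643 to 14723296. Its lowest, median and highest levels were 53.0, 76.3 and 86.2 CPM in normal-sized untreated and 65.1, 71.2 and 103 CPM in normal-sized treated piglets. Those of IUGR piglets were 61.5, 76.7 and 100.2 CPM without and 61.6, 75.2 and 101 CPM with the supplement. PECAM1 was the steadiest member, and the 4 group medians lay within the range of any one group. Its 4 pairwise log2 fold changes were 0.023 to 0.075 with standard errors of 0.094 to 0.10. The 95% interval for the mean IUGR effect, -0.061 to 0.21, was the narrowest of the 10 members.

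CDH5, the cadherin that joins endothelial cells to each other, lies on chromosome 6 from 27108560 to 27142145. In normal-sized piglets the lowest, median and highest levels were 41.7, 67.8 and 92.6 CPM without and 61.5, 76.6 and 95.6 CPM with the supplement. In IUGR piglets they were 47.2, 80.3 and 108 CPM without and 68.8, 78.5 and 172 CPM with it. The ranges overlapped, and pigs 39 and 46 held the highest values, 172 and 128 CPM. For IUGR the log2 fold change was 0.14 (standard error 0.15) in untreated and 0.18 (standard error 0.14) in treated piglets, and 0.083 and -0.013 without the 3 libraries that stood apart. For the supplement it was 0.12 (standard error 0.14) in normal-sized and 0.16 (standard error 0.14) in IUGR piglets, and the latter was 0.029 without them.

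VWF, the clotting factor that endothelial cells store and platelets bind, lies on chromosome 5 from 64516627 to 64655938. Its lowest, median and highest levels were 15.1, 29.2 and 50.8 CPM in normal-sized untreated and 14.96, 21.8 and 59.1 CPM in normal-sized treated piglets. The values of IUGR piglets were 12.9, 25.0 and 39.4 CPM without and 12.85, 26.3 and 51.5 CPM with the supplement. Groups overlapped almost fully, and each held libraries on both sides of the median of all piglets. The log2 fold change for IUGR was -0.27 (standard error 0.24) in untreated and 0.098 (standard error 0.22) in treated piglets, and the latter turned to -0.12 without pigs 38, 39 and 46. The supplement gave -0.33 (standard error 0.23) in normal-sized and 0.039 (standard error 0.23) in IUGR piglets.

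KDR, the VEGF receptor that carries most of the growth signal in endothelium, lies on chromosome 8 from 41809116 to 41856379. In normal-sized piglets the lowest, median and highest levels were 53.6, 112 and 207 CPM without and 67.5, 121 and 189 CPM with the supplement. Those of IUGR piglets were 59.2, 124 and 161 CPM without and 68.75, 127 and 155 CPM with it. All groups overlapped, and the widest spread was in the normal-sized untreated piglets at 125 ± 46.8 CPM (SD, n = 11). The 4 pairwise log2 fold changes were -0.022 to -0.068 with standard errors of 0.17 to 0.19. The 95% interval for the mean IUGR effect was -0.27 to 0.22.

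FLT1, a second VEGF receptor that binds its ligand tightly and signals weakly, lies on chromosome 11 from 5620698 to 5797095. Its lowest, median and highest levels were 13.6, 35.3 and 48.9 CPM in normal-sized untreated and 17.7, 28.5 and 44.0 CPM in normal-sized treated piglets. In IUGR piglets they were 13.55, 29.1 and 41.85 CPM without and 24.3, 36.2 and 51.7 CPM with the supplement. IUGR treated piglets had the highest median and the highest minimum, and their range overlapped those of the other groups. At 37.02 ± 9.69 (SD, n = 13) against 28.2 ± 7.53 CPM (SD, n = 12), FLT1 differed between treated IUGR and treated normal-sized piglets by 0.39 on the log2 scale (standard error 0.17, unadjusted p = 0.025, adjusted p = 0.257 by edgeR). In untreated piglets the IUGR difference was -0.19 (standard error 0.18). The difference between these effects was 0.58 (standard error 0.25, 95% interval 0.091 to 1.07, unadjusted p = 0.0246, adjusted p = 0.666). The supplement gave 0.37 (standard error 0.18, unadjusted p = 0.0447, adjusted p = 0.9998) in IUGR and -0.21 (standard error 0.18) in normal-sized piglets.

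FLT1 kept its direction in these comparisons when pigs 38, 39 and 46 were left out. The IUGR difference in treated piglets was then 0.31 (unadjusted p = 0.0783, adjusted p = 0.839 by edgeR) and the difference between the IUGR effects 0.55 (unadjusted p = 0.0348, adjusted p = 0.364). DESeq2 gave 0.57 and limma voom 0.55 for the latter on all libraries, with unadjusted p values of 0.0228 and 0.0259 and adjusted ones of 0.58 and 0.258. For the difference between the IUGR effects, an unadjusted p under 0.05 was reached by 12.1% of all genes in edgeR without pigs 38, 39 and 46. The share was 7.18% in DESeq2 and 15.2% in limma voom. FLT1 did not pass the adjusted threshold in any of these fits.

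TEK, the receptor for angiopoietins, lies on chromosome 1 from 195938177 to 196052294. In normal-sized piglets the lowest, median and highest levels were 21.5, 59.1 and 84.8 CPM without and 47.7, 60.3 and 88.0 CPM with the supplement. The values of IUGR piglets were 26.0, 63.3 and 85.3 CPM without and 23.96, 63.5 and 83.5 CPM with it. The medians lay close together, and the low ends of 3 groups were set by pig 20 (normal-sized untreated), pig 38 and pig 46. Without the 3 libraries that stood apart the lowest IUGR values were 34.9 CPM in untreated and 41.7 CPM in treated piglets. The log2 fold change for IUGR was 0.11 (standard error 0.19) in untreated and -0.098 (standard error 0.18) in treated piglets, and 0.19 and 0.032 without them.

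ENG, a co-receptor for transforming growth factor beta and bone morphogenetic proteins, lies on chromosome 1 from 268309379 to 268343861. Its lowest, median and highest levels were 96.4, 148 and 200.7 CPM in normal-sized untreated and 80.3, 131.5 and 164 CPM in normal-sized treated piglets. Those of IUGR piglets were 98.8, 164 and 225 CPM without and 104.9, 135 and 479.8 CPM with the supplement. Groups overlapped, and the values of pig 46 (479.8 CPM) and pig 39 (319.6 CPM) lay above every library outside the 3 that stood apart. The IUGR difference in treated piglets was 0.41 on the log2 scale (standard error 0.18, unadjusted p = 0.0266, adjusted p = 0.261 by edgeR) and fell to 0.021 without pigs 38, 39 and 46. Treated IUGR piglets were then at 133 ± 18.4 CPM (SD, n = 11) against 131 ± 22.8 CPM (SD, n = 12) in treated normal-sized piglets. The mean effect of the supplement without those libraries was -0.17 (unadjusted p = 0.0447, adjusted p = 0.259 by edgeR). Of all genes 18.5% had an unadjusted p under 0.05 in that comparison.

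**Figure D2:**
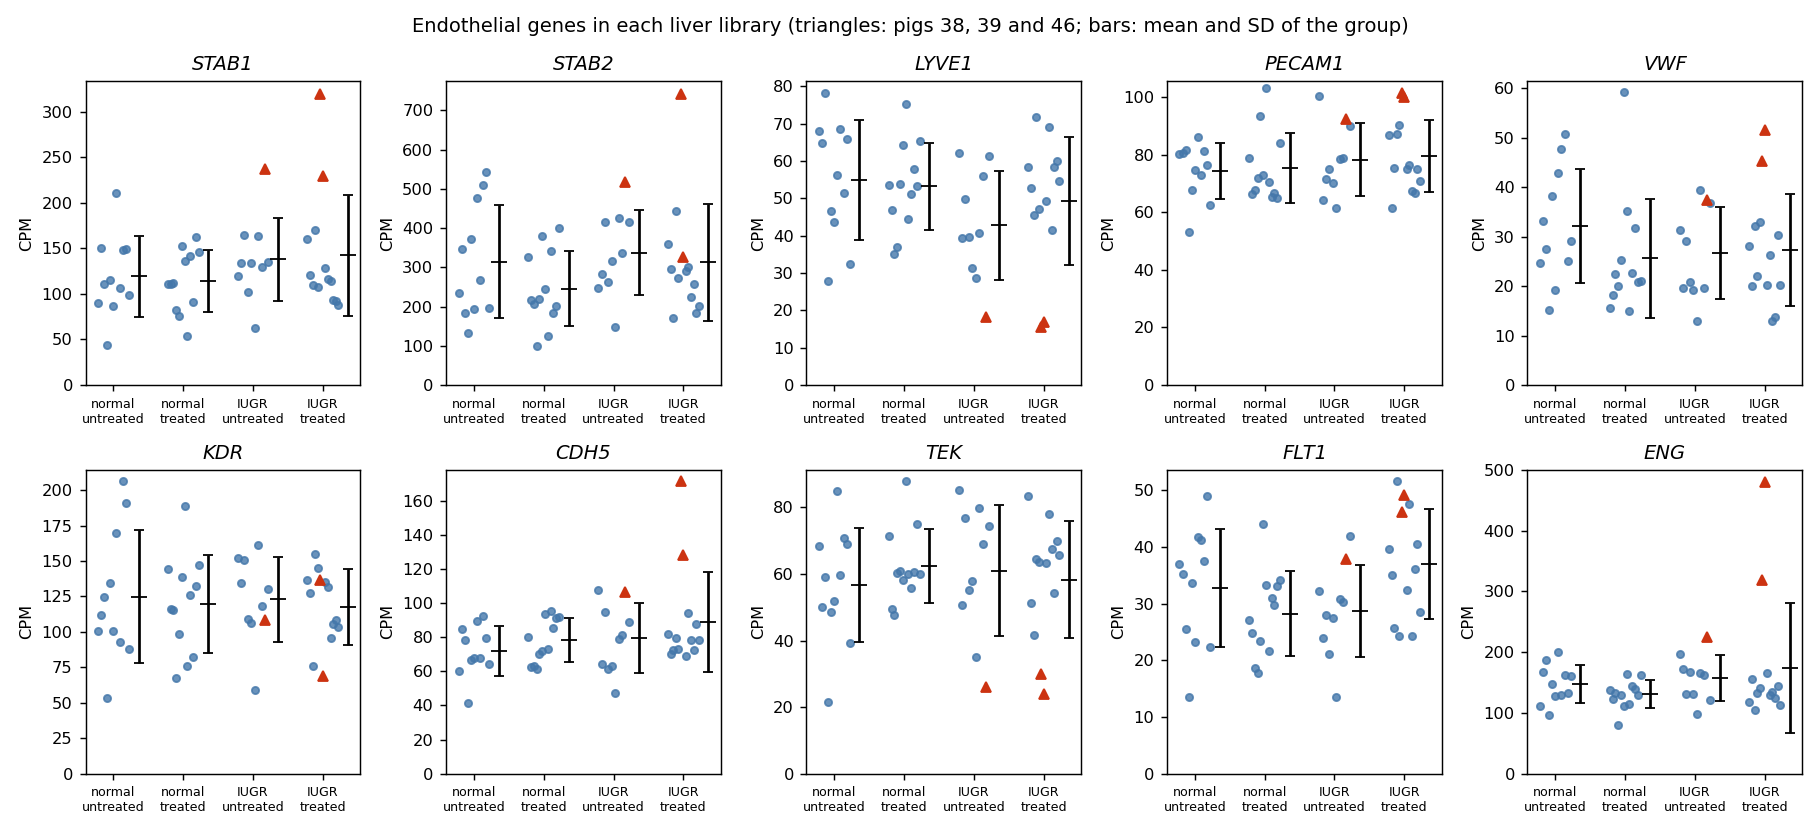
Level in CPM (y axis, from 0) of each of the 10 genes in each library by labelled group, with the group mean and SD as a bar and pigs 38, 39 and 46 as triangles. The ranges of the 4 groups overlap for each gene, and the triangles lie above every other library for STAB1 (229.8 to 319.8 CPM) and ENG (225 to 479.8 CPM) and below every other for LYVE1 (15.5 to 18.2 CPM).

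The 10 genes differed in how much they varied between piglets. Over all 46 livers the coefficient of variation (SD over mean) was 15.2% for PECAM1, 26.2% for CDH5, 27.2% for TEK, 28.1% for KDR, 29.7% for FLT1, 30.2% for LYVE1, 38.5% for STAB1, 39.9% for VWF, 41.03% for ENG and 42.5% for STAB2. The median over all tested genes was 30.3%. PECAM1 was at percentile 4.80 of all tested genes and STAB2 at percentile 78.9, and without pigs 38, 39 and 46 they were at percentiles 15.7 and 80.75. Without the 3 libraries that stood apart ENG fell to 19.1%, STAB1 to 28.25% and CDH5 to 17.8%, against a median of 22.0% over all genes, while VWF stayed at 39.0% and STAB2 at 37.6%. Counting error was small beside this, at 1.49 to 4.87% for the median counts of 421 (VWF) to 4491 (STAB2). The deposited counts of STAB2 were fractional in every library, those of TEK were whole in 11 and those of STAB1 in 26, so their values are estimates and not plain tallies of reads.

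A few livers were low or high for most of the endothelial genes at once. Pig 20, labelled normal-sized untreated, was among the 3 lowest of 46 libraries for 8 of the 10 members, with ranks of 1 to 5, and pig 26, labelled IUGR untreated, was among the 3 lowest for 7, also with ranks of 1 to 5. Pig 20 had 43.9 CPM of STAB1, 53.0 of PECAM1, 21.5 of TEK and 41.7 of CDH5, and pig 26 had 62.7, 61.5, 34.9 and 47.2 CPM of the same genes. Both were below the median of all libraries for 10 of 10 members, as were pigs 4, 7, 34 and 45. Pig 22, labelled normal-sized treated, was among the 3 lowest for 4 members, including STAB2 (99.95 CPM) and ENG (80.3 CPM), and was at 60.4 CPM of TEK, near the median. At the other end pig 42, labelled normal-sized untreated, ranked 30 to 44 and was below the median for 0 members. In bulk tissue, fewer endothelial cells and less RNA of these genes per cell cannot be told apart.

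**Figure D3:**
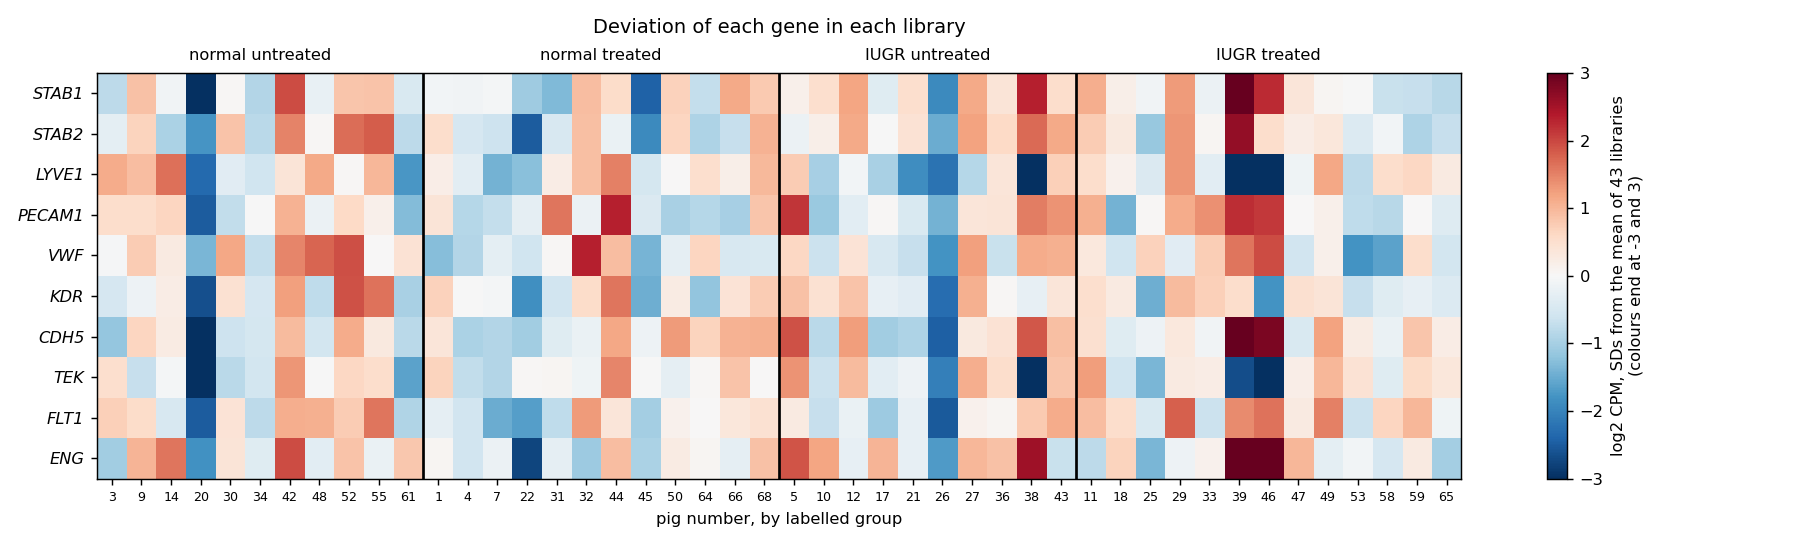
Each cell is the log2 CPM of a gene (rows) in a library (columns, by labelled group and pig number), as the distance from the mean of 43 libraries in SDs of those libraries, with colours ending at -3 and 3. The columns of pigs 20 and 26 are low for 10 of 10 genes, and those of pigs 38, 39 and 46 are high for STAB1 and ENG and low for LYVE1 and TEK.

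In pigs 38, 39 and 46 the members did not move in 1 direction. STAB1 was at 237, 319.8 and 229.8 CPM in these libraries against 43.9 to 211 CPM in the other 43, and ENG at 225, 319.6 and 479.8 against 80.3 to 200.7 CPM. LYVE1 was at 18.2, 15.5 and 16.75 CPM, below each of the other 43 libraries (27.8 to 78.2 CPM). For TEK, at 26.0, 29.8 and 23.96 CPM, 1 of the other 43 libraries was lower, that of pig 20. KDR, at 108.5, 137 and 68.75 CPM, lay inside the range of the others. As a difference of mean log2 CPM, ENG, STAB1, STAB2, VWF and CDH5 were 1.25, 1.18, 0.92, 0.83 and 0.83 higher, FLT1 and PECAM1 0.57 and 0.39 higher, and KDR, TEK and LYVE1 were at -0.22, -1.18 and -1.60. These libraries were singled out from their values, so no test is given, and such shifts were common. Over all tested genes 27.4% were below and 19.1% above every other library in all 3, and the median absolute difference was 0.99.

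Other endothelial genes moved in both directions in the same 3 libraries. Most of the 29 other vascular genes were higher there and a minority lower, while the 16 other sinusoidal genes went both ways. The genes named next were chosen after their values were seen. CALCRL and EMCN, a receptor and a surface sialomucin of endothelium, were at -4.20 and -2.92 on the log2 scale relative to the other libraries, and MRC1, a mannose receptor of sinusoidal endothelium and macrophages, at -1.85. KLF2, NOS3 and CLDN5, a flow-responsive transcription factor, the endothelial nitric oxide synthase and a tight junction protein, were 1.51, 1.49 and 1.49 higher. The libraries also differed in how a gene's deviation moved with the length of its genomic span, with slopes of -0.61, -0.67 and -1.03 (log2 deviation per log10 of the span) against -0.22 to 0.20 in the other 43. The summed level of 11 macrophage genes was 2276 to 2961 CPM in these 3 libraries against 1101 to 2457 CPM in the others, that of 11 erythroid genes 1319 to 3124 against 164 to 2558 CPM, and that of 10 hepatocyte genes 80840 to 126300 against 89720 to 235200 CPM. The part of the length slope or of other cells in the members' values was not tested.

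**Figure D4:**
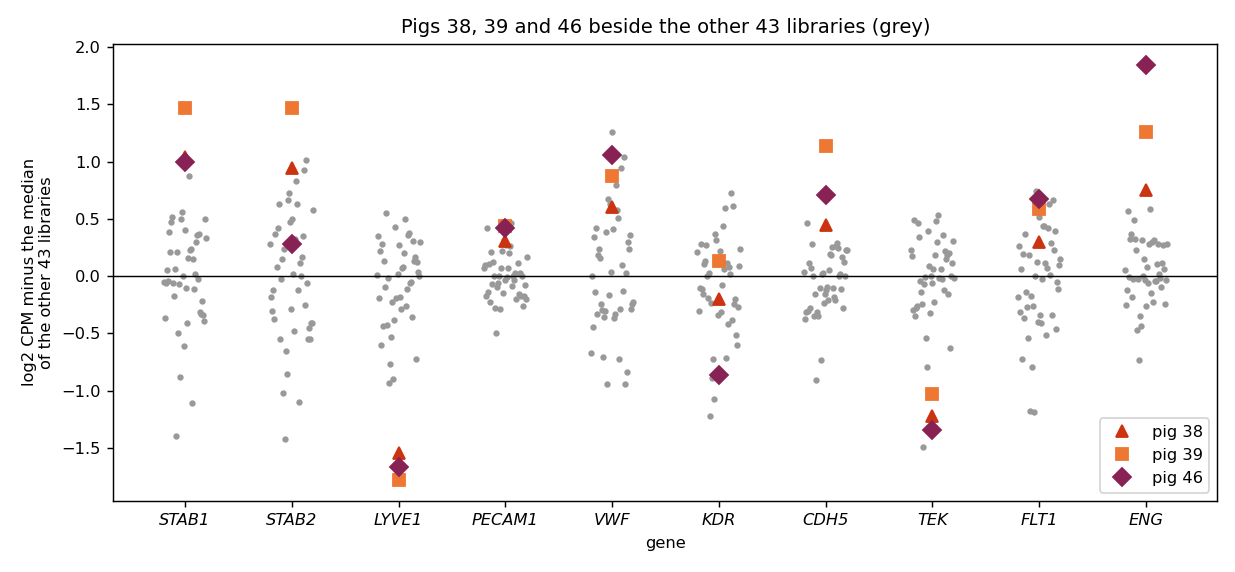
Log2 CPM of each gene (x axis) in pigs 38, 39 and 46, minus the median of the other 43 libraries, which are drawn in grey. LYVE1 lies below and STAB1 and ENG lie above the whole grey range in all 3 pigs, while KDR and PECAM1 lie within it.

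The 10 genes rose and fell together between livers. Over the 43 libraries without pigs 38, 39 and 46, the Pearson correlation of log2 CPM was positive for all 45 pairs of members, with a mean of 0.55 (jackknife standard error 0.087) and a range of 0.30 to 0.82. The mean over all pairs of tested genes was 0.000823, a mean in which positive and negative values offset each other. Of the other 13779 genes, 0.13% (VWF) to 3.94% (CDH5) had r above 0.5 with a given member. Each of the 45 pairs passed 0.05 after Benjamini-Hochberg adjustment over the 45 permutation p values. The share of all gene pairs that would pass was not computed, so this count has no background beside it. With ranks (Spearman's rho) 39 of 45 passed, and 5 of the 6 that did not were pairs with ENG. Removing the group means before the correlation gave a mean of 0.59. Libraries share their scaling and the composition of the tissue, and these correlations do not separate the members' own variation from either.

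The closest pairs were those among STAB1, STAB2 and KDR. STAB2 and KDR had r = 0.82 (rho = 0.79), STAB1 and KDR r = 0.82 (rho = 0.81) and STAB1 and STAB2 r = 0.81 (rho = 0.82), each with a permutation p of 1e-05 for r and for rho, the smallest that 100000 permutations can give, and adjusted p values of 2.65e-05 and 9e-05. LYVE1 ran closest to FLT1, with r = 0.80 (rho = 0.78), and CDH5 to TEK, with r = 0.79 (rho = 0.70), at the same permutation and adjusted p values. LYVE1 was further from the stabilins, with r = 0.44 for STAB1 (rho = 0.33, permutation p = 0.00345 and 0.0328, adjusted p = 0.00457 and 0.0388) and r = 0.42 for STAB2 (rho = 0.35, permutation p = 0.00522 and 0.0239, adjusted p = 0.00652 and 0.029). The lowest values belonged to ENG, with r = 0.30 for VWF (rho = 0.29), 0.31 for LYVE1 (rho = 0.16) and 0.32 for FLT1 (rho = 0.12), at permutation p values of 0.0465, 0.046 and 0.0392 for r and of 0.0614, 0.317 and 0.428 for rho. The adjusted p values for r were 0.0465, 0.0465 and 0.0411, and those for rho 0.0658, 0.325 and 0.428.

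How strong the correlation was depended on a few libraries. Leaving out the 2 libraries farthest from the median on the first gene of a pair gave 0.79 for STAB2 and KDR, 0.76 for STAB1 and KDR, 0.78 for STAB1 and STAB2, 0.72 for LYVE1 and FLT1, and 0.65 for CDH5 and TEK. For ENG with LYVE1, FLT1 and TEK it left 0.14, 0.13 and 0.15, so those relations rested on these libraries. Other pairs also weakened, such as STAB1 and PECAM1 (0.40 to 0.26) and PECAM1 and ENG (0.37 to 0.26). Without pigs 20 and 26, the pair that were low for most members, the mean over 41 libraries was 0.42 (0.13 to 0.80), with 45 of 45 pairs still positive. With all 46 libraries the mean was 0.40, the range -0.41 to 0.83, and 39 of 45 pairs were positive. STAB2 and KDR were then at 0.72, STAB1 and KDR at 0.60 and STAB1 and STAB2 at 0.83. LYVE1 and FLT1 fell to 0.27 and CDH5 and TEK to 0.11, and neither passed (permutation p = 0.0666 and 0.469, adjusted p = 0.0881 and 0.538). The pairs that turned negative were LYVE1 with STAB1, STAB2, VWF, CDH5 and ENG, and TEK with ENG, and in the same libraries LYVE1 and TEK rose from r = 0.63 to 0.79.

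**Figure D5:**
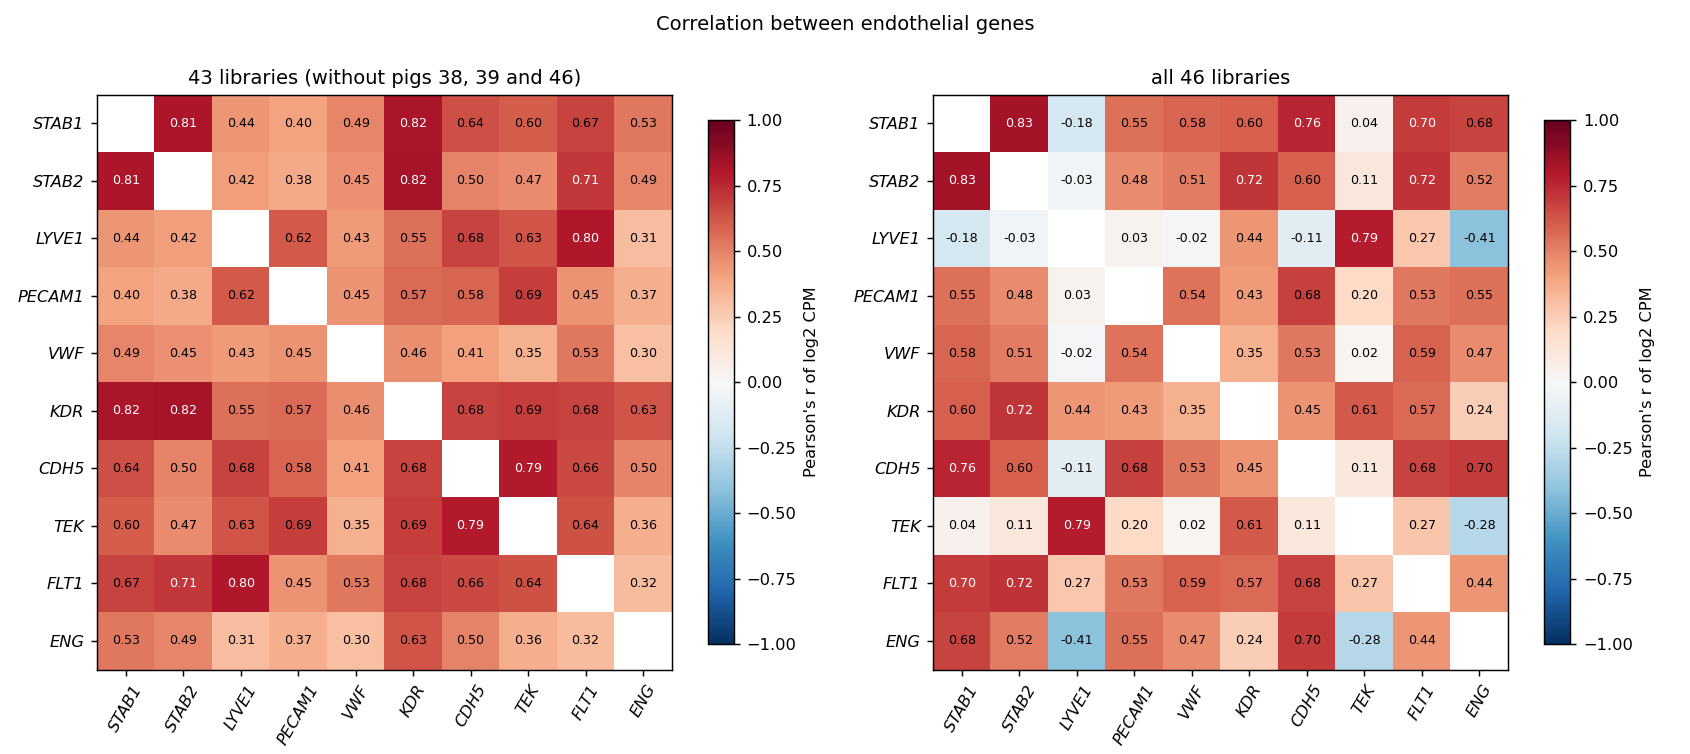
Pearson's r of log2 CPM for each pair of the 10 genes over 43 libraries (left) and over all 46 (right), coloured from -1 to 1. Each pair is positive on the left (0.30 to 0.82), and on the right LYVE1 is negative with STAB1, STAB2, VWF, CDH5 and ENG, down to -0.41.

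The genes whose pattern was most like a member's were ranked by Pearson's r over all tested genes. Over the 43 libraries STAB1 was closest to F8, the clotting factor VIII gene, at r = 0.86, to GPR182, a chemokine-scavenging receptor of endothelium, at 0.86 and to OIT3 at 0.86, followed by FLT4 at 0.84 and SYT2 at 0.84. STAB2 was closest to FLT4, the VEGF receptor of lymphatic and sinusoidal endothelium, at 0.83 and F8 at 0.83, then KDR, STAB1 and WSCD1 (0.79). LYVE1 was closest to PTPRB, the phosphatase that acts on TEK, at 0.83, then FLT1, LOC100156248 (0.79), ADGRL4 (0.76) and MRC1 (0.75). KDR was closest to MRC1 at 0.87, then ST8SIA5 (0.85), PDZD2 (0.84), F8 (0.83) and MMRN2 (0.83). FLT1 was closest to PTPRB (0.84), MRC1 (0.82), ADGRF5 (0.82), NOTCH4 (0.81) and FLT4 (0.81). These genes were chosen by the correlation itself, so it is a description and carries no test. With all 46 libraries r was 0.72 to 0.89 for the neighbours of STAB1 and STAB2 and 0.66 to 0.85 for those of KDR, but 0.27 for LYVE1 with FLT1 and 0.26 for FLT1 with MRC1.

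The junction and angiopoietin genes had partly the same neighbours. TEK was closest to MYCT1 (0.84), CYYR1 (0.84), ADGRL4 (0.83), FAM198B (0.80) and GPRC5B (0.80), and PECAM1 to PODXL (0.79), TEK (0.69), ADGRL4 (0.68), GPRC5B (0.67) and MYCT1 (0.66). CDH5 was closest to ASAH1, the acid ceramidase gene, at 0.83, then ADGRL4 (0.81), ARAP3 (0.81), LOC100624077 (0.81) and TRPC6 (0.81). With all 46 libraries CDH5 kept r = 0.89 with ARAP3 and was at -0.17 with ASAH1, -0.25 with ADGRL4, -0.17 with LOC100624077 and 0.10 with TRPC6. In the same libraries PECAM1 was at -0.13 with ADGRL4 and 0.20 with TEK, and TEK at 0.14 with GPRC5B. ADGRL4, an adhesion receptor of endothelium, was among the 5 nearest genes of 4 members, and F8, FLT4 and MRC1 of 3 each. ENG had other neighbours, PLEKHO1 (0.79), EXOC3L2 (0.78), TSPAN11 (0.77), CD93 (0.76) and MDFI (0.745), and its nearest member was KDR at place 56 of 13779 genes. VWF had the fewest genes above 0.5, with LY9 (0.59), CSGALNACT1 (0.59), ADGRF5 (0.58), MECOM (0.58) and NRP2 (0.58) nearest and 18 genes above that value, against 543 for CDH5. The mean r with the other members was lowest for ENG (0.42) and VWF (0.43). The neighbours of ENG were at r = 0.80 to 0.91 with all 46 libraries, and those of VWF at 0.026 to 0.62.

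The members were also set beside 14 other measures of each library, 140 relations in all over 43 libraries. The share of all tested genes that pass with each measure was not computed. The counts of members here and in the next paragraph therefore have no background beside them and are not particular to these genes. The slope on genomic length was itself fitted over all tested genes, the members among them. The slope on genomic length was positively correlated with 6 of 10 members, LYVE1 (r = 0.47), PECAM1 (0.45), KDR (0.50), CDH5 (0.51), TEK (0.51) and FLT1 (0.48), with permutation p values of 0.0002 to 0.00203 and adjusted p values of 0.0205 to 0.0374 over the 140 relations. The rho of these members was 0.43 to 0.56 and passed for KDR, CDH5 and TEK (permutation p = 0.00013 to 0.00074, adjusted p = 0.0175 to 0.0259), but not for LYVE1, PECAM1 and FLT1 (permutation p = 0.00185, 0.00405 and 0.00234, adjusted p = 0.0518, 0.0709 and 0.052). For these 6 members r without the 2 libraries farthest from the median slope was 0.39 to 0.49. ENG did not pass (r = -0.082, rho = -0.13, permutation p = 0.599 and 0.404, adjusted p = 0.847 and 0.755). With all 46 libraries r was -0.70 for ENG, 0.78 for LYVE1, 0.73 for TEK and 0.38 for KDR, and it turned negative for CDH5 (-0.33), PECAM1 (-0.20) and FLT1 (-0.072). With the slope removed from each member, the mean correlation of the 45 pairs was 0.51 (0.25 to 0.84). Total count, the share of counts in the 10 highest genes, and hepatocyte, cholangiocyte, erythroid, platelet, T and NK cell, B cell and neutrophil genes passed with 0 of 10 members each. Hepatocyte genes were at r = -0.34 to 0.022. Few counts lay behind some of these lists. B cells had 2 genes at a summed 0.27 to 3.09 CPM, platelets 4 at 5.58 to 19.5 CPM and T and NK cells 4 at 3.69 to 17.3 CPM, so their results say little.

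Macrophage genes passed with 2 members, CDH5 (r = 0.51, rho = 0.51, permutation p = 0.00044 and 0.00064, adjusted p = 0.0205 and 0.0259) and STAB1 (r = 0.43, rho = 0.39, permutation p = 0.00354 and 0.0103, adjusted p = 0.0479 and 0.144). Leaving out the 2 farthest libraries gave r = 0.46 for CDH5 and 0.34 for STAB1. ENG was alone in passing with stellate cell and fibroblast genes (r = 0.43, rho = 0.39, permutation p = 0.00411 and 0.00998, adjusted p = 0.0479 and 0.144) and with lymphatic endothelial genes (r = 0.45, rho = 0.45, permutation p = 0.00214 and 0.0026, adjusted p = 0.0374 and 0.052), and gave 0.32 and 0.39 without the 2 farthest libraries. The lymphatic list held PROX1, PDPN, FLT4, CCL21 and RELN. RELN is also in the stellate cell list, so these results of ENG share a gene, and FLT4 is also a receptor of sinusoidal endothelium. Over all 46 libraries r with macrophage genes was 0.69 for CDH5 and 0.62 for STAB1, and that of ENG with stellate cell and lymphatic genes was 0.085 and 0.14. The number of genes detected passed with CDH5 (r = 0.45, permutation p = 0.00262, adjusted p = 0.0408) and ENG (r = 0.43, permutation p = 0.00379, adjusted p = 0.0479), and neither passed by rho (0.32 and 0.37, permutation p = 0.0378 and 0.0139, adjusted p = 0.334 and 0.177). The part of these measures in the members' correlation, apart from the length slope, was not tested.

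Other genes of the members' pathways were not called by edgeR. Of 16 other sinusoidal genes, 29 other vascular genes, 7 VEGF ligands and co-receptors, 5 angiopoietin genes and partners of TEK, 19 genes of the endoglin pathway, 13 junction genes, 7 genes that handle or bind VWF, 8 hyaluronan genes and 17 endothelial transcription factors that were tested, edgeR called 0 in each of the 7 comparisons. Limma voom called BMPR2, a receptor of the endoglin pathway, and VCAN, a hyaluronan-binding proteoglycan, as higher with the supplement in normal-sized piglets and on average, and on average RAMP2 as lower and ERG as higher. It called 5.68% and 5.97% of all genes in these comparisons. For the mean IUGR effect at an unadjusted p under 0.05, 12 of 29 vascular genes were higher and 0 lower in IUGR piglets, against 0 of 16 sinusoidal genes in either direction and 22.8% of all tested genes in both directions together. The vascular genes with the smallest p were AQP1, a water channel, at 0.57 on the log2 scale (standard error 0.17, adjusted p = 0.0825 by edgeR), CLDN5 at 0.49 (standard error 0.16, adjusted p = 0.0991) and ROBO4, a guidance receptor of vessels, at 0.43 (standard error 0.15, adjusted p = 0.115). AQP1 did not run with the members, as its highest r with any of them over 43 libraries was 0.089, against 0.53 for CLDN5 and 0.58 for ROBO4. Without pigs 38, 39 and 46, 2 of 29 vascular and 2 of 16 sinusoidal genes were higher at an unadjusted p under 0.05, against 11.6% of all genes in both directions, and AQP1, CLDN5 and ROBO4 were at 0.39, 0.22 and 0.24. The sinusoidal genes with the smallest p, MAF, OIT3 and CLEC4G, were at 0.31, 0.23 and 0.23, and at 0.026, 0.12 and 0.037 without those libraries.

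Among the partners of ENG, 6 of 19 genes were higher at an unadjusted p under 0.05 for the mean IUGR effect and 0 lower, and 1 of 19 was higher without the 3 libraries. These counts, and those of the lists that follow, stand against the same 22.8% of all genes with and 11.6% without the 3 libraries. ACVRL1, the receptor that ENG assists, was at 0.35 (standard error 0.12, adjusted p = 0.109 by edgeR), and at 0.22 without them. The ligands TGFB1 and GDF2 were at 0.31 and 0.21, and at 0.11 and 0.13 without them. VEGFA, the main ligand of KDR and FLT1, was at 0.16 (standard error 0.078, adjusted p = 0.221), VEGFB at 0.24 and the receptor FLT4 at 0.26, and 2 of 7 genes of that list passed the unadjusted level. Without the 3 libraries VEGFA, VEGFB and FLT4 were at 0.069, 0.090 and 0.105. TIE1, the partner receptor of TEK, was at 0.29 (standard error 0.12, adjusted p = 0.155), and PTPRB and the ligand ANGPT1 were at -0.15 and -0.18. Leaving out the 3 libraries gave 0.096 for TIE1, -0.073 for PTPRB and -0.0032 for ANGPT1. For junctions, 2 of 13 genes were higher, CLDN5 and ESAM (0.27), and the alpha catenin gene CTNNA1 was at 0.12 (adjusted p = 0.23). ESAM and CTNNA1 were at 0.053 and 0.031 without the 3 libraries.

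ADAMTS13, the protease that cuts VWF, was at 0.48 for the mean IUGR effect (standard error 0.14, adjusted p = 0.0782 by edgeR), and LRP1, a clearance receptor, at 0.39 (standard error 0.12, adjusted p = 0.0894), the 2 of 7 genes of the VWF list past the unadjusted level. DESeq2 called ADAMTS13 in this comparison with an adjusted p of 0.0457, the single gene of these 9 lists that DESeq2 called in any of the 7 comparisons. Without pigs 38, 39 and 46 edgeR gave ADAMTS13 0.24 (adjusted p = 0.297) and LRP1 0.18 (adjusted p = 0.339). Among hyaluronan genes 3 of 8 were higher and 1 lower, with the hyaluronidase HYAL2 at 0.30, CEMIP, which degrades hyaluronan, at 0.59 and the hyaluronan receptor HMMR at -0.61, at adjusted p values of 0.103, 0.162 and 0.152. Without pigs 38, 39 and 46 HYAL2, CEMIP and HMMR were at 0.125, 0.33 and -0.42. Of the transcription factors 2 of 17 were higher, KLF2 at 0.47 and LYL1 at 0.36, at adjusted p values of 0.124 and 0.18, and SOX17 was at 0.33 (adjusted p = 0.226). KLF2, LYL1 and SOX17 were at 0.17, 0.15 and 0.235 without pigs 38, 39 and 46. For the mean supplement effect, 3 of 29 vascular genes were higher and 1 lower at the unadjusted level and the other lists had 0 or 1 gene past it, against 6.01% of all genes.

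Lists of other cell types were measured beside the members. The summed level of 11 macrophage genes had medians of 1565 and 1673 CPM in untreated and treated normal-sized piglets and of 1643 and 1716 CPM in untreated and treated IUGR piglets. That of the 5 genes of the lymphatic endothelial list was 302.8, 369, 300.4 and 330.5 CPM in the same order. With FLT4 and RELN in it, that list does not measure lymphatic endothelium alone. The summed level of 11 erythroid genes had medians of 643 and 791 CPM in normal-sized and 945 and 932 CPM in IUGR piglets, with ranges of 164 to 2251 and 295 to 1208 CPM against 663 to 2755 and 358 to 3124 CPM. For the mean IUGR effect, 6 of 11 erythroid and 2 of 11 macrophage genes were higher at an unadjusted p under 0.05 and 0 were called by edgeR, and without pigs 38, 39 and 46 the numbers were 1 and 0 of 11, against 22.8% and 11.6% of all genes. T and NK cell genes, of which 4 of the 8 listed were tested, were looked at in the comparisons where FLT1 reached the unadjusted level. In treated IUGR against treated normal-sized piglets 3 of 4 were higher (median 0.57 on the log2 scale), against 16.7% of all genes. With the supplement in IUGR piglets 3 of 4 were higher (median 0.76), against 4.54% of all genes. For the difference of the IUGR effects 2 of 4 were higher, against 6.66% of all genes. Their summed level was low, at 3.69 to 17.3 CPM over all libraries, with medians of 5.31, 5.65, 6.02 and 7.31 CPM in untreated and treated normal-sized and untreated and treated IUGR piglets. In the first of these comparisons, where ENG also reached that level, 4 of 11 macrophage genes were higher. When pigs 38, 39 and 46 were left out, 1 of 4 T and NK cell genes and 0 of 11 macrophage genes were higher for IUGR in treated piglets. For the supplement in IUGR piglets 2 of 4 T and NK cell genes were. The shares of all genes were then 6.23% and 11.9%. Over the 43 libraries FLT1 had r = 0.022 (rho = 0.042) with the T and NK cell genes. The part of these cell types in the members' group differences was not tested.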

How the data were processed

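Liver RNA of 46 piglets had been sequenced, and the authors deposited 1 table of estimated counts per gene and library, not normalised, after mapping with Bowtie2 to Sscrofa11.1. The submitters' processing notes name DESeq2, while for the counting program no name is given in the sources used here. Of the deposited values 85.9% were whole numbers, and all were rounded to whole counts before the tests. Groups came from the labels, and columns were matched by pig number. Each library is a separate piglet, and among 1035 pairs of libraries none looked like a duplicate (smallest chi-square per gene 21.4).

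Genes were filtered with filterByExpr (minimum count 10), leaving 13780, scaled by TMM and fitted with edgeR 4.0.16 (R 4.3.3) by robust quasi-likelihood over all 4 groups, with Benjamini-Hochberg adjustment at 0.05. DESeq2 1.42.0, limma 3.58.1 with voom quality weights, other scalings and filters, and leaving out pigs 38, 39 and 46 were alternatives. Removing the length slope and leaving out pigs 20 and 26 were added after seeing the data. The scripts were tested on simulated data.

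Correlations used log2 CPM (prior count 1) with two-sided permutation tests of 100000 permutations. All 10 members were named, with the genes of each list past the threshold or otherwise up to 3 with the smallest p for the mean IUGR effect, and the 5 genes nearest each member. Genes named for pigs 38, 39 and 46, and those called by another tool, were chosen after their values were seen. The members and lists were chosen with earlier results of these data known. Positions are from the RefSeq annotation of Sscrofa11.1. Levels of different genes were not compared, since no transcript lengths were used.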

Additional observations from a re-analysis of the deposited data

How the results depend on the processing

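No setting tried gave a member past the adjusted threshold in any of the 7 comparisons, and of 390 log2 fold changes recomputed under the alternatives 353 kept their sign. The other 37 turned, none of them past the threshold under either setting, and the cause was not tested. With limma voom the IUGR effect turned in untreated piglets for KDR (0.031), and in treated piglets for STAB1 (-0.048), LYVE1 (0.028), PECAM1 (-0.020), VWF (-0.15), CDH5 (-0.0035), TEK (0.014) and ENG (-0.013). The mean IUGR effect turned for PECAM1 (-0.0096), CDH5 (-0.0016) and FLT1 (-0.018). The supplement effect turned in normal-sized piglets for STAB1 (0.064) and KDR (0.096), in IUGR piglets for STAB1 (-0.12), VWF (-0.12), TEK (0.029) and ENG (-0.16), and on average for KDR (0.031). The difference of the IUGR effects turned for STAB1 (-0.19), STAB2 (-0.058), CDH5 (-0.0039) and ENG (-0.047). Without pigs 38, 39 and 46 the IUGR effect in treated piglets turned for LYVE1 (0.053), PECAM1 (-0.0013), VWF (-0.12), KDR (0.0047), CDH5 (-0.013) and TEK (0.032), the supplement effect in IUGR piglets for STAB1 (-0.10), PECAM1 (-0.018), VWF (-0.11) and ENG (-0.17), and the difference of the IUGR effects for STAB1 (-0.049), KDR (0.011) and CDH5 (-0.096). TEK turned to -0.0042 for the mean IUGR effect with DESeq2 and with DESeq2 size factors.

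Of 225 recomputed pair correlations 203 stayed past the threshold with the same sign. This total includes the rescalings by DESeq2 size factors and by total count, where 45 of 45 stayed each time. With all 46 libraries 30 of 45 stayed, 9 kept their sign and no longer passed, and 6 turned. With all 46 libraries r turned for STAB1 and LYVE1 (-0.18), STAB2 and LYVE1 (-0.029), LYVE1 and VWF (-0.015), LYVE1 and CDH5 (-0.11), LYVE1 and ENG (-0.41), and TEK and ENG (-0.28). Of these LYVE1 and ENG passed as negative (adjusted permutation p = 0.00966). Among those that no longer passed, STAB1 and TEK were at 0.045 and LYVE1 and PECAM1 at 0.032. The mean over pairs was 0.397 with all 46 libraries and 0.416 without pigs 20 and 26. No paired analysis was possible because the groups share no pig number and the labels give no litter.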
